A study of Mus musculus with 144 samples.

Results

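Blood gene expression was compared among 4 groups of mice that differed only in the amount of multi-walled carbon nanotubes (MWCNT) that had entered the lung 12 months earlier. The vehicle mice were left out, so that every difference described lies among exposed animals. All mice were male C57BL/J6, 7 weeks old when bought and housed 1 per cage, and each had received a single pharyngeal aspiration of MWCNT in dispersion medium (DM), phosphate-buffered saline with glucose, mouse serum albumin and a phospholipid. The 4 groups had 9 mice at 1 µg, 8 at 10 µg, 7 at 40 µg and 8 at 80 µg, which is 32 mice on 35 arrays and 4 of the 18 groups of the series. They were chosen by dose and time label alone, and 2 mice at 10 µg and 1 at 40 µg were each the mean of 2 arrays whose titles ended in the same number. Blood of 8 mice given DM and of 8 mice given 120 µg of crocidolite asbestos, taken at the same time, is shown beside the doses and took no part in the slope. The paired arrays of those 3 mice correlated at 0.924, 0.897 and 0.936, against medians of 0.903, 0.833 and 0.897 with the other mice of their groups. The highest correlations with another mouse were 0.916, 0.911 and 0.939, so 2 of the 3 pairs were no closer than some arrays of different mice, and the 2 arrays of a DM mouse correlated at 0.913, below their median of 0.917 with other mice. Whether each pair came from 1 animal was not tested.

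Whole blood RNA is a mixture from red cells, platelets, neutrophils, monocytes, natural killer cells and B and T lymphocytes. Inhaled fibres that the lung cannot clear are known to keep up a local inflammatory reaction, and lymphocytes pass between blood, lymph nodes and the lung with the help of chemokine receptors such as Ccr7. In such a mixture, fewer cells of a type and less RNA per cell cannot be told apart. The labelled tissue had its markers. The 13 platelet genes had a median log2 signal of 8.23 and the 12 erythroid genes of 6.48, against 1.29 for 14 lung epithelial genes. A signal of 1.63, the level under which 90% of the olfactory receptor probe sets lay, was taken as the background limit, and 11701 probe sets reached it.

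The question was whether blood genes followed the MWCNT dose once the vehicle group could not set the slope. No gene passed. Of 23521 probe sets, limma called 0 (0%) at an adjusted p under 0.1, and the smallest adjusted p was 0.476. An ordinary regression also called 0, with 1791 at an unadjusted p under 0.05. By limma, at an unadjusted p under 0.05 there were 1847 probe sets (7.85%), where evenly spread p-values would give 1176. This number was 3043 without mouse 1 of the 1 µg group, 1219 without mouse 5 and 1080 without mouse 8 of that group, and the p-values measure only the spread between these mice. Of these, 1165 (4.95%) had lower fitted levels at higher dose and 682 (2.9%) had higher ones. A fitted change is the slope times the 6.32 doublings between 1 and 80 µg, on the log2 scale, and is given with its standard error (SE). The 1.5-fold difference used by the study is 0.58 on this scale, and 442 probe sets (1.88%) reached it at an unadjusted p under 0.05. The median SE over all probe sets was 0.197, with quartiles of 0.168 and 0.236. Where nothing is said of a pass in what follows, a gene did not pass.

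Genes of lymphocytes had lower fitted levels at higher dose. All 21 measured B cell genes and all 18 T cell genes had a fitted change below 0. So did 12414 of all 23521 probe sets and 8656 of the 11701 above background. The median change was -0.47 over the B cell genes and -0.38 over the T cell genes, against -0.02 over all probe sets and -0.16 over those above background. Of the B cell genes 7 (33.3%) were lower at an unadjusted p under 0.05, 0 were higher and 14 were neither, and of the T cell genes 6 (33.3%) were lower and 12 were neither. The share of probe sets lower at that level was 4.95% over all and 9.12% above background. It was 14.3%, with a median change of -0.27, between a log2 signal of 3 and 5, where the T cell median signal of 3.40 lay. Between 5 and 7, where the B cell median signal of 5.60 lay, it was 8.02%, with a median change of -0.25. None of the B or T cell genes passed after adjustment over all genes.

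Ccr7, the chemokine receptor that guides naive lymphocytes and dendritic cells into lymph nodes, was one of 3 genes set to be named in any case. Its lowest, median and highest log2 values were 5.47, 6.21 and 7.18 in the 1 µg mice, 5.61, 6.48 and 6.85 at 10 µg, 4.32, 5.85 and 6.34 at 40 µg and 3.84, 5.66 and 6.33 at 80 µg. The groups overlapped, and both lower groups had higher medians than both upper groups. Its fitted change was -0.85 ± 0.28 (SE, 32 mice, 95% interval -1.41 to -0.28, limma adjusted p = 0.628). In the group means the difference lay above 10 µg, with 0.01 for 10 µg minus 1 µg, -0.61 for 40 µg minus 10 µg and -0.27 for 80 µg minus 40 µg. A threshold in dose was not shown, as an F test of departure from a straight line gave an unadjusted p of 0.22. The 40 µg mean included 1 mouse at 4.32, where the next lay at 5.56.

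Cd8a, part of the CD8 co-receptor by which cytotoxic T cells read class I molecules, had a lowest, median and highest value of 4.08, 4.82 and 6.14 at 1 µg, 4.13, 4.63 and 5.55 at 10 µg, 4.24, 4.55 and 5.24 at 40 µg and 3.88, 4.19 and 5.25 at 80 µg. The medians stood in the order of the doses, while 1 mouse at 80 µg lay above 7 of the 9 mice at 1 µg. The fitted change was -0.59 ± 0.21 (limma adjusted p = 0.628). Bcl11b, a transcription factor that T cells need to keep their identity, averaged 2.64 ± 0.67 (SD, n = 9) at 1 µg, 2.31 ± 0.51 (n = 8) at 10 µg, 2.36 ± 0.49 (n = 7) at 40 µg and 1.66 ± 0.37 (n = 8) at 80 µg. Only its last step was large, at -0.70, and the fitted change was -0.78 ± 0.24. Cd6, an adhesion and signalling receptor of T cells, had a fitted change of -0.45 ± 0.19, and Cd27, a costimulatory receptor, of -0.57 ± 0.25. Of the 15 natural killer and cytotoxic genes, all were fitted lower, with a median of -0.23, but 0 reached an unadjusted p under 0.05. Their smallest p was that of Ccl5, a chemokine of effector lymphocytes, at -0.40 ± 0.25.

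**Figure D1:**
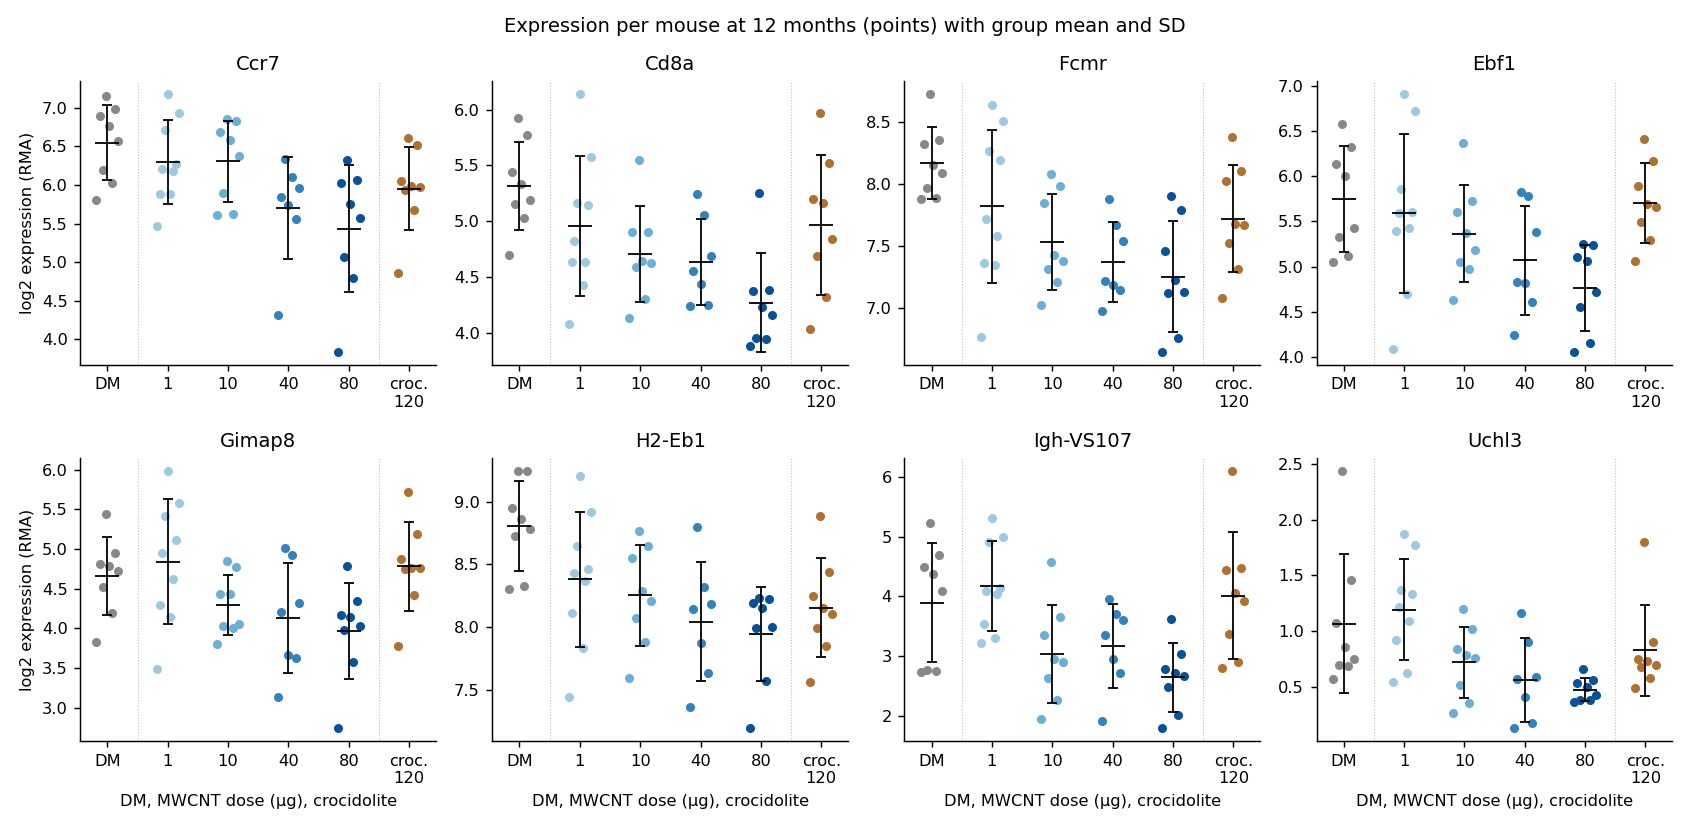
Log2 expression (RMA) of 8 genes in each mouse at 12 months, by DM, MWCNT dose in µg and crocidolite (120 µg), with each group's mean and SD as black bars; the dotted lines set off the groups that took no part in the slope. Means stand in dose order for Fcmr, Cd8a, Ebf1, Gimap8, H2-Eb1 and Uchl3, and the groups overlap in every panel.

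Among the B cell genes, Fcmr, the receptor for IgM, had a lowest, median and highest value of 6.77, 7.72 and 8.64 at 1 µg, 7.03, 7.41 and 8.08 at 10 µg, 6.98, 7.22 and 7.88 at 40 µg and 6.65, 7.18 and 7.91 at 80 µg. Each dose had a lower median than the dose before it, within groups that overlapped. The 3 steps were -0.29, -0.16 and -0.12, and the fitted change was -0.56 ± 0.20 (95% interval -0.96 to -0.15, limma adjusted p = 0.628). Ebf1, a transcription factor that sets up the B lineage, averaged 5.59 ± 0.88 (SD, n = 9) at 1 µg, 5.36 ± 0.54 (n = 8) at 10 µg, 5.07 ± 0.60 (n = 7) at 40 µg and 4.77 ± 0.48 (n = 8) at 80 µg. The steps were near equal, at -0.23, -0.29 and -0.30, and the fitted change was -0.77 ± 0.27. Fcrl1, an Fc receptor-like protein of the B cell surface, had a fitted change of -0.64 ± 0.24, and Cd37, a tetraspanin of mature B cells, of -0.49 ± 0.21. Group means were lower at each of the 3 dose steps for 11 of the 21 B cell genes (52.4%), where this held for 4.95% of all probe sets and 7.98% of those above background. It held for 4 of the 18 T cell genes (22.2%).

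The 21 B cell genes were also averaged within each mouse, as a description. This mean was 6.42 ± 0.73 (SD, n = 9) at 1 µg, 6.18 ± 0.38 (n = 8) at 10 µg, 6.03 ± 0.47 (n = 7) at 40 µg and 5.92 ± 0.27 (n = 8) at 80 µg. The 1 µg mice were the most spread out, between 5.18 and 7.45, and the 80 µg mice lay between 5.60 and 6.41, inside the range of the 1 µg mice. The T cell mean was 3.96 ± 0.50, 3.74 ± 0.26, 3.70 ± 0.29 and 3.56 ± 0.19 at the same doses. The platelet mean had no such order, at 8.81 ± 0.59, 8.70 ± 0.49, 8.89 ± 0.47 and 8.78 ± 0.41. Dose order was not particular to lymphocyte lists. The ribosomal protein mean kept it at 5.57, 5.46, 5.44 and 5.43, and the circadian clock mean at 2.455, 2.428, 2.383 and 2.37. The natural killer and cytotoxic mean did not, at 3.51, 3.36, 3.28 and 3.30.

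**Figure D2:**
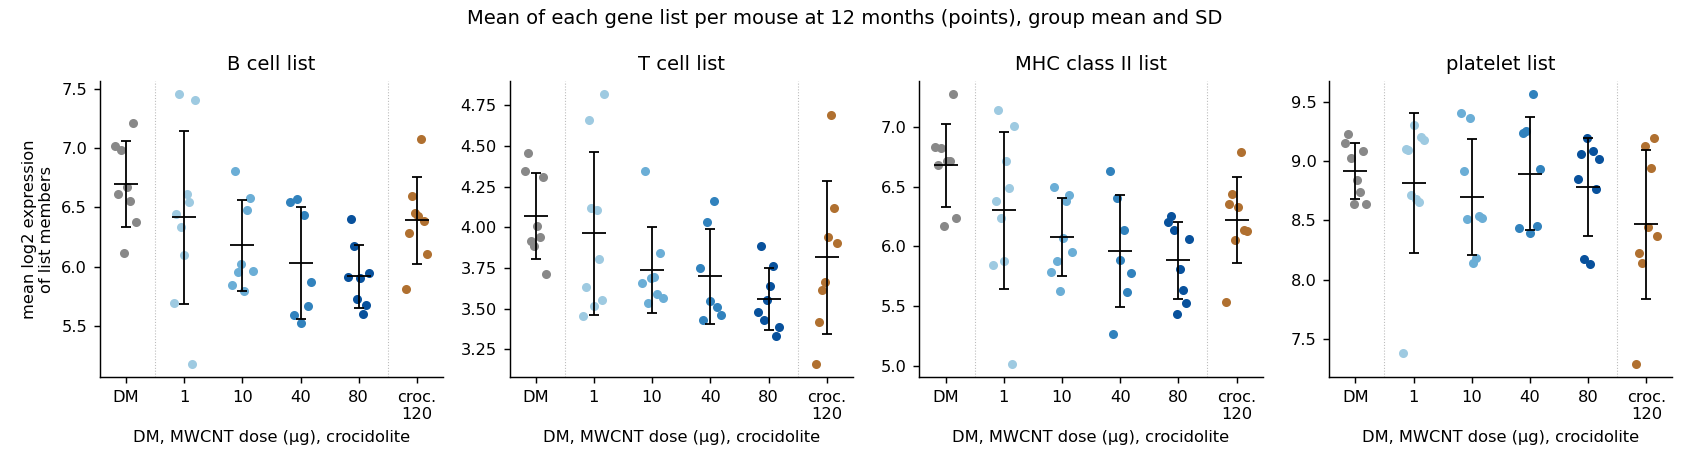
Mean log2 expression of the members of the B cell, T cell, MHC class II and platelet lists in each mouse at 12 months, by DM, MWCNT dose in µg and crocidolite (120 µg), with group mean and SD as black bars. The B cell means of the groups run from 6.42 at 1 µg to 5.92 at 80 µg in dose order, with the widest spread at 1 µg, and the platelet means keep no dose order.

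Genes that lymphocytes use alongside their defining markers followed the same pattern. The 8 measured Gimap genes, which encode GTPases that keep lymphocytes alive, had a median change of -0.48. Of them 4 (50%) were lower at an unadjusted p under 0.05. For this and the lists that follow, the share lower at that level was 9.12% over all probe sets above background. It was 14.3% over those with a log2 signal between 3 and 5. Gimap8 had a lowest, median and highest value of 3.49, 4.95 and 5.99 at 1 µg, 3.80, 4.24 and 4.85 at 10 µg, 3.14, 4.21 and 5.01 at 40 µg and 2.74, 4.08 and 4.79 at 80 µg. At 1 µg, 4 of the 9 mice lay above every mouse of the higher doses. Its fitted change was -0.86 ± 0.26, and those of Gimap1, Gimap3 and Gimap6 were -0.83 ± 0.29, -0.59 ± 0.26 and -0.53 ± 0.24. The Gimap genes are close relatives in 1 cluster, so a probe set of one may also read others.

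The products of the 10 MHC class II genes present peptides to helper T cells and are carried by B cells and monocytes. All 10 genes were fitted lower with a median of -0.42, and 3 (30%) reached an unadjusted p under 0.05. Their group means were lower at each step for 7 of the 10 (70%), against 7.98% of probe sets above background. This held for 5 of the 8 Gimap genes (62.5%), 3 of 18 immunoglobulin segments (16.7%) and 2 of 15 natural killer and cytotoxic genes (13.3%). It also held for 7 of 38 proteasome genes (18.4%). H2-Eb1, a beta chain of the class II molecule, averaged 8.38 ± 0.54 (SD, n = 9) at 1 µg, 8.25 ± 0.40 (n = 8) at 10 µg, 8.04 ± 0.47 (n = 7) at 40 µg and 7.94 ± 0.37 (n = 8) at 80 µg, a fitted change of -0.43 ± 0.20. H2-Eb2, a related beta chain, had a fitted change of -0.84 ± 0.33, and H2-Ob, a chain of the molecule that moderates peptide loading in B cells, of -0.47 ± 0.22. The 13 MHC class I genes had a median of -0.23 with 1 lower, H2-Q5, at -0.73 ± 0.29. The class I genes share much of their sequence, and reads of one by the probes of another cannot be told apart here.

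The 18 immunoglobulin segments are parts of the antibody chains that B cells and plasma cells make. All 18 were fitted lower with a median of -0.38, and 3 (16.7%) reached an unadjusted p under 0.05. Igkv4-59, a light chain segment, averaged 3.23 ± 1.25 (SD, n = 9) at 1 µg, 2.84 ± 1.00 (n = 8) at 10 µg, 2.61 ± 0.62 (n = 7) at 40 µg and 2.11 ± 0.92 (n = 8) at 80 µg. Its order followed the dose, but with an SD near or above 1 in 3 groups, and the fitted change was -0.999 ± 0.40. Igkv4-91 had a fitted change of -0.68 ± 0.23, most of it in the last step of -0.70. These segments belong to a large family of near-identical copies and are uncertain as single genes. The 10 genes of antibody-secreting cells, which include the secretion machinery of plasma cells, had a median of 0.02 and 0 at an unadjusted p under 0.05.

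Genes of NF-kappaB, a transcription factor that controls inflammation and lymphocyte survival, followed a similar pattern. All 12 were fitted lower, with a median of -0.37, and 4 (33.3%) reached an unadjusted p under 0.05. Ikbkb, a kinase that frees NF-kappaB from its inhibitors, averaged 5.38 ± 0.79 (SD, n = 9) at 1 µg, 4.94 ± 0.63 (n = 8) at 10 µg, 4.86 ± 0.68 (n = 7) at 40 µg and 4.59 ± 0.49 (n = 8) at 80 µg, a fitted change of -0.73 ± 0.27. The inhibitors Nfkbib and Nfkbie had fitted changes of -0.55 ± 0.19 and -0.73 ± 0.34, and Relb, a subunit of the factor, of -0.39 ± 0.17. The 11 lymphocyte homing genes had a median of -0.39 with 2 (18.2%) lower. These were Ccr7 and Ccr6, a chemokine receptor of B cells and some T cells, at -0.52 ± 0.22.

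The 18 interferon-stimulated genes had a median of -0.29 without any at an unadjusted p under 0.05. Of the 18 inflammation genes only Il1r1, the receptor of interleukin-1, was lower at that level, at -0.58 ± 0.23, with its lowest mean at 40 µg. Of the 20 immediate-early genes, which respond within minutes to a stimulus, Klf4 (-0.63 ± 0.20) and Junb (-0.41 ± 0.20) were lower and Nr4a2 (0.41 ± 0.17) was higher. Nr4a2 had a mean signal of 1.47, under the background limit.

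The lists of other blood cells had medians closer to 0, and their difference from the lymphocyte lists was not tested. The lists of platelets (13 genes), erythroid cells (12), monocytes (16) and neutrophils (17) held 0 genes at an unadjusted p under 0.05, with medians of 0.02, -0.08, -0.12 and -0.16, and their members' fitted changes ran between -0.55 and 0.31. Most members were still fitted lower in 3 of the lists, 13 of 16 for monocytes, 14 of 17 for neutrophils and 10 of 12 for erythroid cells, against 5 of 13 for platelets. Most probe sets above background were fitted lower too, 8656 of 11701. Over the 15 mice of arrays 1 to 96, the monocyte and neutrophil medians were -0.32 and -0.33 and the T cell median -0.29, and without the arrays of low correlation the monocyte median was -0.28. In the list of mast cells, basophils and eosinophils (16 genes, median -0.05) 1 gene was higher and 1 lower. Mcpt9, a mast cell protease, had a lowest, median and highest value of 0.75, 1.04 and 2.54 at 1 µg, 0.97, 1.23 and 2.64 at 10 µg, 0.96, 1.18 and 2.87 at 40 µg and 1.16, 2.19 and 3.89 at 80 µg. The median stood apart at 80 µg alone, while each lower dose had 1 mouse far above the rest, and the fitted change was 0.77 ± 0.31. The mean signal of Mcpt9 was 1.57, under the background limit. Siglecf, a lectin of eosinophils, had a fitted change of -0.40 ± 0.19, and without the 1 µg group it was 0.00124.

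Housekeeping groups had medians closer to that of all probe sets above background than the B and T cell lists had. The median was -0.22 over 38 proteasome genes with 7 lower (18.4%), -0.15 over 76 nuclear genes of the respiratory chain with 4 lower (5.26%) and -0.13 over 67 ribosomal protein genes with 4 lower (5.97%). The proteasome median was near those of the MHC class I and natural killer lists, both -0.23. Its share lower was near that of the lymphocyte homing list (18.2%). Psmd3, a lid subunit of the proteasome, had a fitted change of -0.68 ± 0.23, Psmd13 of -0.38 ± 0.15, Psmd12 of -0.52 ± 0.22 and Psmd10, a chaperone of proteasome assembly, of -0.42 ± 0.19. Ndufv2, a subunit of respiratory complex I, was at -0.68 ± 0.24. Rps13, a protein of the small ribosomal subunit, averaged 6.04 ± 0.58 (SD, n = 9) at 1 µg, 5.17 ± 0.63 (n = 8) at 10 µg, 4.95 ± 1.17 (n = 7) at 40 µg and 5.37 ± 0.73 (n = 8) at 80 µg. Its difference was one between 1 µg and the other doses, and its fitted change of -0.85 ± 0.34 became 0.27 without the 1 µg group.

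Of the 18 DNA replication genes 3 (16.7%) were lower. These were Rrm1, a subunit of ribonucleotide reductase (-0.62 ± 0.21), and Mcm4 (-0.58 ± 0.22) and Mcm5 (-0.52 ± 0.26) of the replicative helicase. Mcm10, which loads onto that helicase, was higher (0.30 ± 0.14). The 17 mitosis genes had 0 at an unadjusted p under 0.05. Lung epithelial genes were dim. Ager, a receptor of the alveolar lining, averaged 1.47 ± 0.43, 1.82 ± 0.34, 2.19 ± 0.55 and 2.03 ± 0.22 at 1, 10, 40 and 80 µg, with a fitted change of 0.65 ± 0.18, and Sftpb, a surfactant protein, was at 0.40 ± 0.18 with a mean signal of 1.16, under the background limit. The other 12 lung genes did not reach an unadjusted p under 0.05.

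Over all probe sets, the median change differed with the signal level. Under the background limit the median change was 0.08, between a log2 signal of 3 and 5 it was -0.27 over 3794 probe sets, between 5 and 7 it was -0.25 over 1459, and at 7 and over it was -0.09 over 618. Between 3 and 5, 14.3% of probe sets were lower and 0.316% higher at an unadjusted p under 0.05. After a second quantile normalization, which forces the 35 arrays to 1 distribution, these medians lay between -0.03 and 0.02. The B cell median was then -0.30, the Gimap median -0.33, the MHC class II median -0.24 and the T cell median -0.17, against -0.02 for the probe sets above background. The MHC class I and proteasome medians were then near 0, at -0.0019 and 0.0031.

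**Figure D3:**
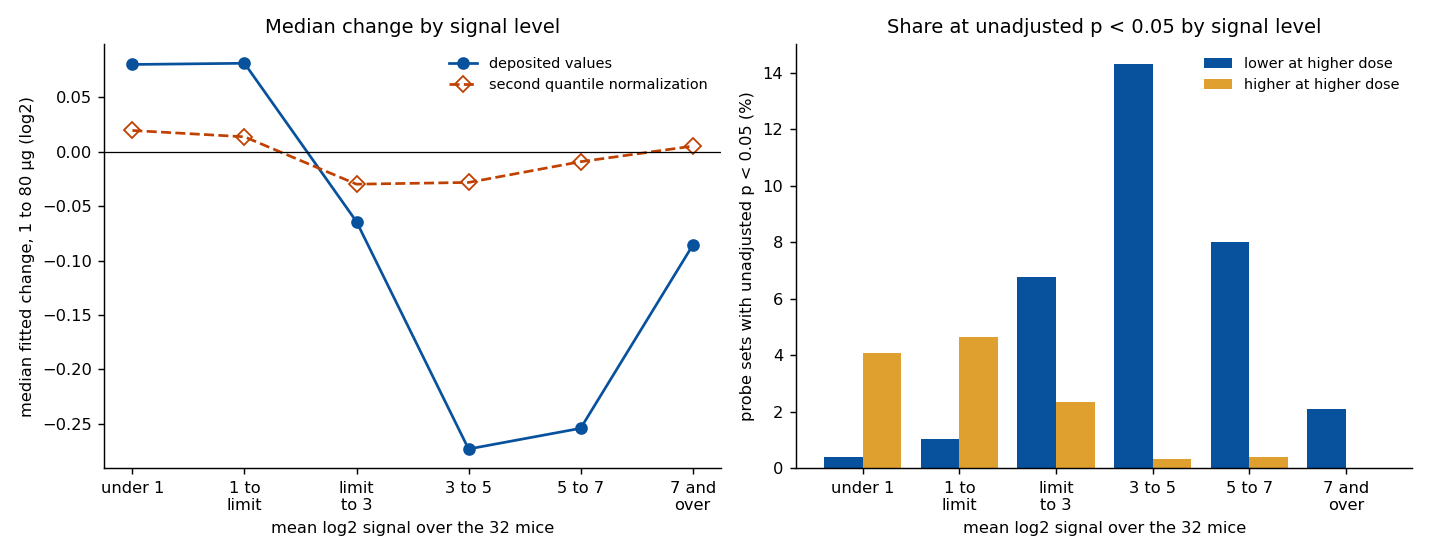
Left, the median fitted change from 1 to 80 µg (log2) of probe sets grouped by mean log2 signal over the 32 mice, for the deposited values and after a second quantile normalization; right, the percent of each group with an unadjusted p under 0.05 in each direction. The deposited values have a median of -0.27 between a signal of 3 and 5, where 14.3% of probe sets were lower at higher dose, and the median is near 0 at every level after quantile normalization; "limit" is the background limit of 1.63.

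How widely an array's values scattered about the probe set medians was measured as an interquartile range, called its spread. It averaged 0.651 ± 0.134 (SD, n = 9) at 1 µg, 0.651 ± 0.091 (n = 8) at 10 µg, 0.668 ± 0.125 (n = 7) at 40 µg and 0.652 ± 0.069 (n = 8) at 80 µg, and its slope had a 2-sided permutation p of 0.88. Of the 35 arrays, 7 had a median correlation with the others under 0.85, which were 1, 2, 2 and 2 at the 4 doses, and without them 0 genes were called and the B cell median was -0.49. The labels name no batch. The array number, split after 96, put 4, 5, 3 and 3 mice of the doses in the first part and 5, 3, 4 and 5 in the second, and the B cell median was -0.42 over the 15 mice of the first and -0.47 over the 17 of the second. The MHC class II medians were -0.37 and -0.42. The 2 parts lay further apart for Gimap genes (-0.28 and -0.66), T cell genes (-0.29 and -0.42) and immunoglobulin segments (-0.26 and -0.45). Whether the array number marks a batch was not tested.

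Where along the dose range the difference lay was then asked step by step. Limma called 0 probe sets (0%) in each of the 3 steps. At an unadjusted p under 0.05 there were 1828 (7.77%) between 10 and 1 µg, 1165 (4.95%) lower and 663 (2.82%) higher. There were 687 (2.92%) between 40 and 10 µg, 246 (1.05%) lower and 441 (1.87%) higher, and 720 (3.06%) between 80 and 40 µg, 359 and 361 (1.53% each). Over the probe sets above background the median step was -0.22, 0.06 and -0.02. Without the 1 µg group, 782 probe sets (3.32%) had an unadjusted p under 0.05, and the median change above background was 0.08 when scaled to the same 80-fold range. The lymphocyte lists did not lose their direction in this way. Without the 1 µg group the median was -0.52 over the B cell genes, -0.53 over the MHC class II and Gimap genes, -0.51 over the immunoglobulin segments and -0.35 over the T cell genes. The median steps were -0.23, -0.16 and -0.06 for B cell genes and -0.26, -0.15 and -0.17 for Gimap genes, but -0.28, -0.0004 and -0.005 for the proteasome and -0.27, 0.11 and 0.05 for the respiratory chain. Not every lymphocyte list fell at each step. The T cell steps were -0.24, -0.02 and -0.11, and the natural killer and cytotoxic steps -0.10, -0.003 and -0.07. The last step of the immunoglobulin segments was 0.01.

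**Figure D4:**
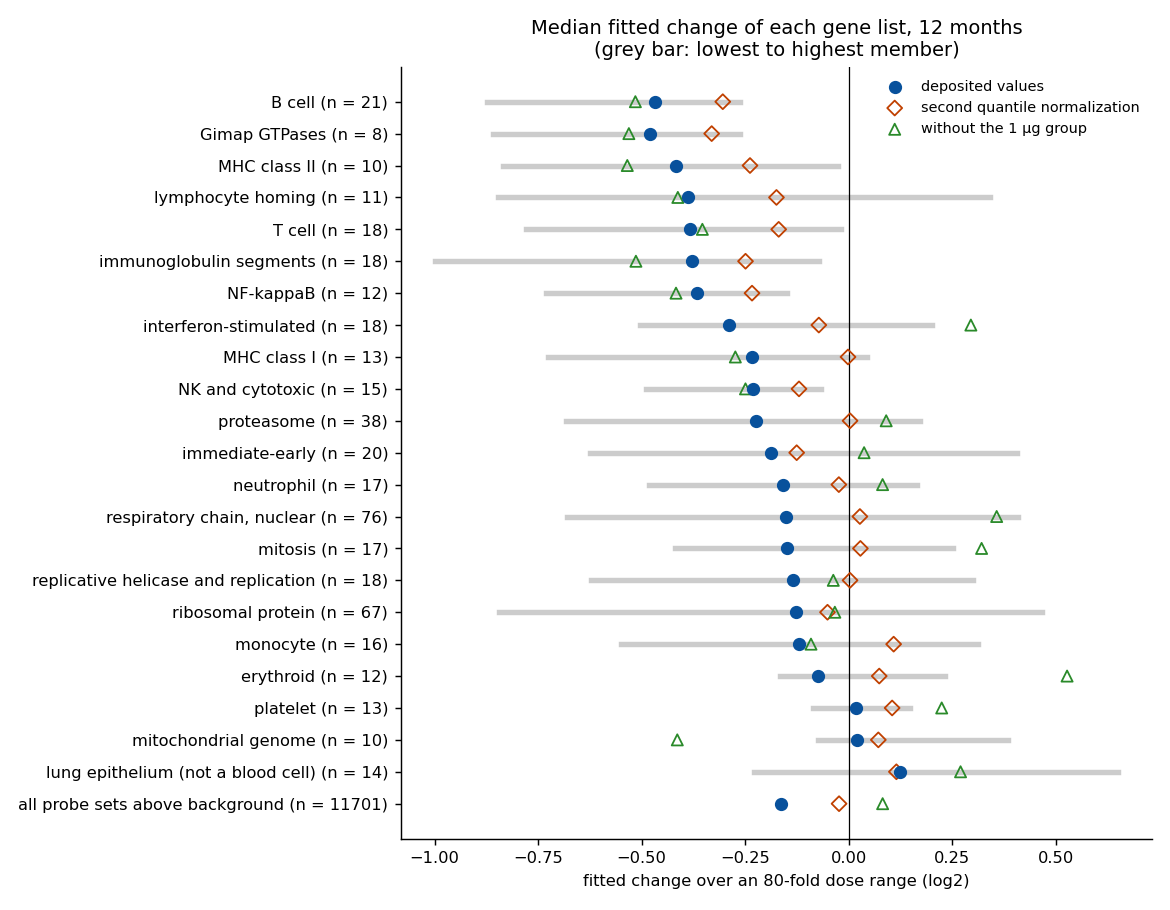
Median fitted change (log2) over an 80-fold dose range for each gene list at 12 months, with the number of genes measured; filled circles are the deposited values, diamonds the same after a second quantile normalization, triangles the fit without the 1 µg group, scaled from 10 to 80 µg to the same 80-fold range, and grey bars run from the lowest to the highest member. The B cell, Gimap, MHC class II, T cell, immunoglobulin and NF-kappaB medians lie below 0 in all 3 fits, as do some others nearer 0, such as the ribosomal protein median (-0.13, -0.05 and -0.03), while the proteasome and respiratory chain medians do not.

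Departures from a straight line in log2 dose were tested with an F test, which called 0 probe sets (0%), with 726 (3.09%) at an unadjusted p under 0.05. Clhc1, a protein with a clathrin heavy chain linker domain, had a lowest, median and highest value of 0.65, 1.11 and 2.04 at 1 µg, 0.77, 0.97 and 1.35 at 10 µg, 0.79, 0.95 and 1.62 at 40 µg and 1.48, 1.80 and 2.13 at 80 µg. The 80 µg mice lay above every 10 µg mouse and overlapped the others (F test adjusted p = 0.9999). Zfp534, a zinc finger protein of a family with many copies, averaged 1.13 ± 0.38, 2.15 ± 0.62, 1.30 ± 0.33 and 1.49 ± 0.45, highest at 10 µg. Cul7, a scaffold of a ubiquitin ligase, was lower at 10 µg (1.56 ± 0.20) and 40 µg (1.44 ± 0.17) than at 1 µg (1.96 ± 0.24) and 80 µg (2.04 ± 0.29). Clhc1, Zfp534 and Cul7 all had a mean signal near the background limit.

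The 10 named genes with the smallest p of the slope, none passing, held an antibody segment beside genes of other functions. Klhl17, an adaptor of a ubiquitin ligase described in neurons, had a lowest, median and highest value of 1.37, 1.98 and 2.92 at 1 µg, 1.03, 1.35 and 1.92 at 10 µg, 0.83, 1.43 and 2.17 at 40 µg and 0.76, 0.97 and 1.70 at 80 µg. The fitted change was -0.88 ± 0.19 (limma adjusted p = 0.476), most of it between 1 and 10 µg, at a mean signal of 1.56, under the background limit. Uchl3, a ubiquitin hydrolase, averaged 1.20 ± 0.46, 0.72 ± 0.32, 0.56 ± 0.37 and 0.48 ± 0.11, and the 80 µg mice kept within 0.37 to 0.66. Its fitted change was -0.72 ± 0.16 (limma adjusted p = 0.476), at a signal under the background limit. Igh-VS107, an antibody heavy chain variable segment, had the largest fitted change of the 10, -1.40 ± 0.31 (limma adjusted p = 0.476), with means of 4.17 ± 0.76 (n = 9), 3.04 ± 0.83 (n = 8), 3.17 ± 0.70 (n = 7) and 2.64 ± 0.57 (n = 8).

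The others were Wdr18 (-0.93 ± 0.22), a partner in ribosome assembly, Eral1 (-0.85 ± 0.20), a GTPase that assembles the small mitochondrial ribosome, Hadh (-0.97 ± 0.24), an enzyme of mitochondrial fatty acid oxidation, Mtmr9 (-0.87 ± 0.22), a myotubularin-related protein, Lrrc40 (-0.60 ± 0.15), a leucine-rich repeat protein, and the pseudogene Phf8-ps (-0.51 ± 0.13). Mrgpre, a G protein-coupled receptor described in sensory neurons, was the only one of the 10 higher at higher dose. Its lowest, median and highest values were 0.95, 1.29 and 1.62 at 1 µg, 1.33, 1.92 and 2.70 at 10 µg, 1.54, 1.76 and 2.62 at 40 µg and 1.22, 2.14 and 2.46 at 80 µg, a fitted change of 0.78 ± 0.18. The 1 µg mice were low and the other doses much alike. Without the 1 µg group the fitted change of Mtmr9 was 0.03, and that of Wdr18 was -0.92. The other fitted changes of the 10 were also smaller in size without that group. They were -0.39 for Klhl17, -0.51 for Uchl3, -0.66 for Igh-VS107 and 0.31 for Mrgpre. For Eral1, Hadh, Lrrc40 and Phf8-ps they were -0.56, -0.36, -0.15 and -0.24. Phf8-ps had a mean signal of 0.86, under the background limit.

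The levels of most lymphocyte genes were lower in the 1 µg mice than in the mice given DM, and this is given as values with no test. The B cell mean was 6.42 ± 0.73 (SD, n = 9) in 1 µg mice and 6.69 ± 0.36 (n = 8) in DM mice, and 20 of the 21 genes were higher in DM mice. For all 10 MHC class II genes the 1 µg mean lay below the DM mean. The median over these genes was 0.32 for B cells and 0.42 for MHC class II as DM minus 1 µg. Over all 23521 probe sets, 12329 were higher in DM mice. Lists of other kinds also had most members higher in DM mice, 10 of 10 for the mitochondrial genome, 11 of 13 for platelets, 14 of 17 for neutrophils, 53 of 67 for ribosomal proteins and 57 of 76 for the respiratory chain. Fcmr averaged 7.82 ± 0.62 in 1 µg mice and 8.18 ± 0.29 in DM mice, and Igkv4-59 averaged 3.23 ± 1.25 in 1 µg mice and 4.42 ± 0.55 in DM mice. Uchl3 and Klhl17 did not show this, with means of 1.20 and 2.12 in 1 µg mice against 1.07 and 1.70 in DM mice.

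With the dose on the scale of log2(dose + 1), the fit over the 32 MWCNT mice called 0 probe sets (smallest adjusted p = 0.66), and the same fit with the 8 DM mice added called 1.56% of the probe sets, 334 lower and 32 higher at higher dose (smallest adjusted p = 0.0468). Ccr7 had an adjusted p of 0.0468 with them. The DM arrays of this month also had a lower spread, 0.575 ± 0.029 (SD, 9 arrays), and 0 of them had a median correlation under 0.85. Of these DM arrays, 7 were numbered 1 to 96, against 4 of the 9 arrays at 1 µg. The part of spread, correlation and array number in the calls with DM mice added was not tested. Nor was their part in the differences between DM and 1 µg mice. In crocidolite mice the B cell mean was 6.39 ± 0.37 (n = 8), close to that of the 1 µg MWCNT mice, and Ccr7 averaged 5.95 ± 0.54.

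Earlier months served as the same measure in other mice. The slope over the 4 doses called 1 probe set (0.00425%) at 1 month in 28 mice and 0 (0%) at 6 months in 32 mice, with 1195 (5.08%) at 1 month and 794 (3.38%) at 6 months at an unadjusted p under 0.05. Of these, 504 (2.14%) were lower and 691 (2.94%) higher at 1 month, and 406 (1.73%) lower and 388 (1.65%) higher at 6 months. The median over the B cell genes was 0.007 at 1 month, -0.18 at 6 months and -0.47 at 12 months, with 0, 1 and 7 of 21 genes lower at an unadjusted p under 0.05. Over the T cell genes it was 0.02, -0.30 and -0.38, with 0, 3 and 6 of 18 lower. Natural killer genes had a median of 0.16, -0.31 and -0.23, and 2 of 15 were lower at that level at 6 months and 0 at the other times. Over all probe sets above background the median moved the same way, at 0.08, -0.05 and -0.16. Between a log2 signal of 3 and 5 it was 0.12, -0.07 and -0.27. Ccr7 had a fitted change of 0.04 ± 0.21, -0.25 ± 0.18 and -0.85 ± 0.28 at 1, 6 and 12 months, and Gimap1 of 0.30 ± 0.25, 0.15 ± 0.22 and -0.83 ± 0.29.

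The slopes were not shown to differ between months. The F test of slope by month called 0 probe sets (0%), with 1492 (6.34%) at an unadjusted p under 0.05 and a smallest adjusted p of 0.467. That gene was Eral1, with fitted changes of 0.59 ± 0.21, -0.26 ± 0.20 and -0.85 ± 0.20 at 1, 6 and 12 months. Dcaf15, a substrate receptor of a ubiquitin ligase, was at 0.80 ± 0.21, -0.49 ± 0.19 and -0.56 ± 0.27, and Gpr75, an orphan receptor, at -0.80 ± 0.19, 0.14 ± 0.22 and 0.69 ± 0.28. For Ccr7 the test gave an adjusted p of 0.783.

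The 1 gene that passed at 1 month was Ache, the acetylcholinesterase that also sits on red cells. It averaged 2.48 ± 0.27, 3.13 ± 0.42, 3.29 ± 0.39 and 3.41 ± 0.35 at 1, 10, 40 and 80 µg, and rose by 0.93 ± 0.16 (limma adjusted p = 0.0638). The call was lost after a second quantile normalization, with a mean-variance trend, with the array number as a block and without arrays of low correlation. At 12 months Ache had a fitted change of -0.30 ± 0.25, with means of 2.85 ± 0.78, 2.79 ± 0.45, 2.78 ± 0.58 and 2.46 ± 0.51.

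**Figure D5:**
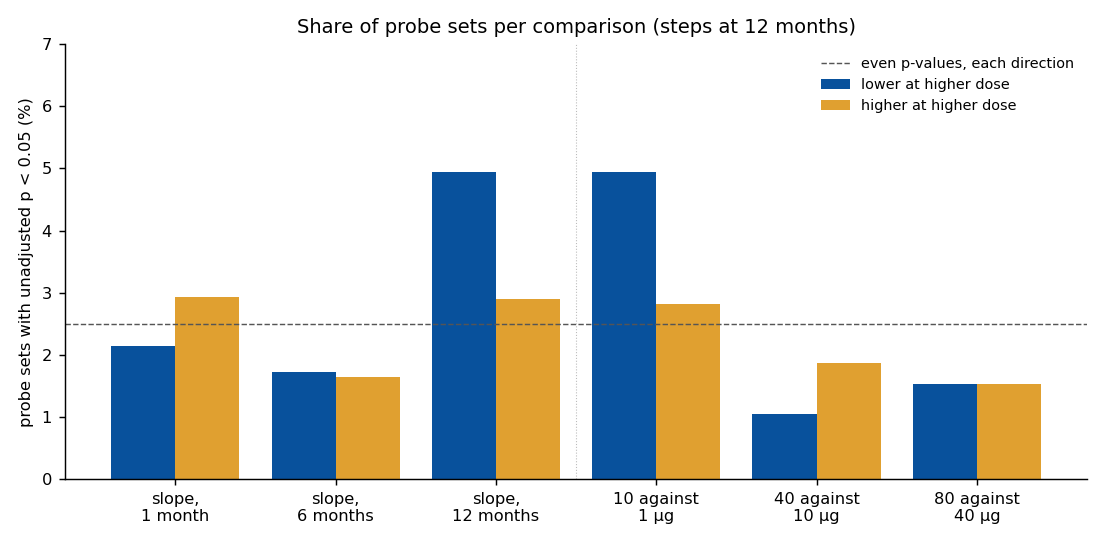
Percent of the 23521 probe sets with an unadjusted p under 0.05 and a lower (blue) or higher (orange) level at higher dose, for the slope at 1, 6 and 12 months and for the 3 dose steps at 12 months; the dashed line is the 2.5% per direction that evenly spread p-values give. The slope at 12 months and the step between 10 and 1 µg each have 4.95% lower, and the upper steps lie below the line in both directions.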

How the data were processed

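Affymetrix Mouse Gene ST 2.1 plates were read, and the deposited log2 values came from the authors' use of oligo and its RMA method (background correction, quantile normalization and summary per probe set). Versions were not given in the sources used here. Of 41345 probe sets, 23521 had 1 gene symbol in the platform table and were tested, 1820 had several, and for 16004 the table gave none. Current symbols came from a RefSeq gene table of GRCm38.p6 by gene ID (23328 found, 193 kept as given).

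Arrays of a group whose titles ended in the same number were averaged and counted as 1 mouse. A linear model of the log2 values on the log2 of the dose in µg was fitted over the 32 mice by lmFit and eBayes of limma 3.58.1 under R 4.3.3, after the fit was tested on simulated data. P-values were adjusted by Benjamini-Hochberg over all 23521 probe sets and called at an adjusted p under 0.1. The same fit was run at 1 and 6 months. F tests covered departure from the line and slopes by month. The number of arrays limits the precision. The alternatives were another normalization, weights, covariates, filters, dose scales and each dose group or mouse left out.

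The members and gene lists were chosen with earlier results of these data known. Of the probe sets called, up to 15 in each direction were to be named and, with fewer than 10 called, the 10 with the smallest p. Up to 4 were taken for each other test and each gene list by smallest p, and Ccr7, Fcmr and Cd8a in any case. Predicted genes, small RNAs and olfactory receptors were not eligible. Only some of these picks are described, selected with their values known. Where a gene had more than 1 probe set, the smallest p decided for naming and the highest mean signal for lists. Fits with and without the DM mice on log2(dose + 1) were added after the data were seen.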

Additional observations from a re-analysis of the deposited data

Results flagged for a closer look

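In 18 of 248 dose groups looked at, over 62 genes, 1 mouse stood so far from the others that the gap to its nearest neighbour took up an unusually large part of the group's range. Chance alone flags about 1 in 20. Among lymphocyte genes these were Ccr7 in a 40 µg mouse at 4.32, where the next lay at 5.56, Cd8a in an 80 µg mouse at 5.25 above 4.38, Cd27 in a 10 µg mouse at 3.75 above 3.05 and H2-Eb2 in an 80 µg mouse at 2.04 below 3.75. Mcpt9 had such a mouse at 1 µg (2.54), 10 µg (2.64) and 40 µg (2.87), and Siglecf at 40 µg (3.81) and 80 µg (3.05). In the 80 µg group, Nfkbib had 1 mouse at 2.18, Relb 1 at 3.3, Mrgpre 1 at 1.22 and Tex22 1 at 1.99. In the 40 µg group, Rrm1 had 1 mouse at 2.39, Mcm4 1 at 3.02, Rps13 1 at 7.3 and Gpr75 1 at 3.87. Zfp534 had 1 mouse of the 1 µg group at 1.97. No difference of slopes between months passed.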

How the results depend on the processing

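The slope at 12 months called 0 probe sets under all 20 alternatives chosen at the outset, with a smallest adjusted p between 0.173 and 0.999, and with each of the 32 mice left out in turn, between 0.118 and 0.957. The number at an unadjusted p under 0.05 was less settled, between 782 (without the 1 µg group) and 2663 (all 18 groups fitted together), 903 in arrays 1 to 96, between 1080 and 3043 with 1 mouse left out (both extremes on leaving out a 1 µg mouse), and 1095 after a second quantile normalization. The fit on log2(dose + 1) that held the DM mice called 334 lower and 32 higher probe sets, and 0 with those mice left out. The step between 10 and 1 µg gained 1 call with array weights. The single call at 1 month became 0 after a second quantile normalization, with a mean-variance trend, with the array number as a block and without arrays of low correlation. The cause was not tested. Of the 54 slope genes looked at one by one, 4 turned direction without the 1 µg group, Mtmr9 (0.034), Siglecf (0.00124), Rps13 (0.266) and Psmd10 (0.182), and the fit then has only 10 to 80 µg to go on. With 1 mouse left out, and under the others of the 20, no gene of the 54 changed direction or passed. Ccr7 ran between -0.968 and -0.682 with 1 mouse left out. No paired analysis was possible because the mouse numbers in the labels are not shared between groups and replicate numbers were given in accession order. Signal near background limits what can be said of genes under 1.63.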
